A study of Mus musculus with 3 samples.

Results

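The transcript end of a gene was taken here as the last annotated base of each autosomal protein-coding gene in GENCODE M1 (mouse build mm9), and the ends described are those lying more than 10 kb from any transcript start and from any other gene. Of 21418 such gene ends on the 19 autosomes, 4575 met this rule. The remaining 16843 were left out because both a transcript start and another gene lay within 10 kb (11217 ends), a transcript start alone (3854) or another gene alone (1772). The isolated ends belonged to genes of 10003 to 2270724 bp, which were split by length into 3 groups of 1525. The short genes spanned 10003 to 28913 bp, the middle genes 28925 to 79363 bp and the long genes 79377 bp or more. Their last exon had a median length of 1369 bp, and 1909 of the 4575 had another annotated transcript end within 5 kb.

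Modified cytosines were read at base resolution in genomic DNA of E14, a line of mouse embryonic stem cells (mESCs), grown on gelatin in serum medium with LIF and the inhibitors PD0325901 (of MEK) and CHIR99021 (of GSK3). The same untreated cells were read with 3 chemistries, all of which turn the cytosine of interest into a base that is sequenced as T. TAPSβ shields 5hmC with glucose and reads 5-methylcytosine (5mC), CAPS oxidises 5hmC chemically and reads 5-hydroxymethylcytosine (5hmC), and PS omits oxidation and reads 5-formylcytosine and 5-carboxylcytosine (5fC/5caC). Each method had 1 library from 1 line, so no value below has a replicate check.

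Levels are the percentage of base calls that read as modified, pooled over CpG cytosines on both strands and not corrected for false positives or incomplete conversion. Their 95% intervals are exact binomial (Clopper-Pearson) for a level and normal for a difference, and cover counting error only. The libraries held 511365019 (TAPSβ), 377288829 (CAPS) and 383591531 (PS) base calls at CpG cytosines, with medians of 13, 9 and 9 reads per listed cytosine, and autosomal levels of 57.4%, 3.15% and 0.240%.

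5mC is laid down by DNA methyltransferases and fills most gene bodies, while CpG-rich stretches often stay free of it. TET enzymes oxidise 5mC to 5hmC, which is known from the bodies and distal regulatory sites of active genes, and oxidise 5hmC further to 5fC and 5caC. At the end of a gene the polyadenylation signal, usually AATAAA or its variant ATTAAA, lies a short way upstream of the place where the transcript is cut and tailed. Polymerases go on transcribing for some distance beyond this place.

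The sequence signature of a transcript end was present at most of the isolated ends. AATAAA was found on the coding strand in the last 50 bases of 57.3% of them, and AATAAA or ATTAAA in 71.7%. Over all 21418 ends the same shares were 54.0% and 66.2%, and in 50-base windows ending 5 kb before and 5 kb after the isolated ends AATAAA or ATTAAA occurred in 4.72% and 5.88%. The end that E14 cells use was not measured, and some of these genes have other annotated ends nearby. The last 30 annotated bases of 7 genes described further on are given 5′ to 3′ on the coding strand (mm9), with the hexamer in capitals where it lay within them. They are shown because the last 50 bp, in which the hexamer was sought, had the lowest 5hmC level in 50-bp bins around the end. In addition, ends with and without the hexamer were among those with a large change. Other ends with the largest CAPS changes, those of Kcnk18, Cnot10, 4932412H11Rik and Spred2, are not shown and had neither hexamer in their last 50 bases. The 7 sequences therefore do not give the share of such ends that carry the hexamer. The first 4 are ends after which the CAPS level was lower, the next 2 ends after which it was higher, and the last an end after which the TAPSβ level was higher.
Acpl2 (chr9:96723763-96723792, minus strand): gtttttagaAATAAAcattttggaattctt
Bmf (chr2:118354493-118354522, minus strand): acagtttttAATAAAaccatttaaagcaga
Pdk4 (chr6:5433351-5433380, minus strand): ttttatAATAAAtatttttattataatagt
Arl4c (chr1:90569700-90569729, minus strand): ttattcaacccagatcagttgaatatccaa
Ints7 (chr1:193446522-193446551, plus strand): tttccctgtgtaAATAAAtctcctaatttc
Zyg11b (chr4:107902329-107902358, minus strand): cctaAATAAAtgttacaaattttatgtaaa
Zfp697 (chr3:98235842-98235871, plus strand): ttgtcATTAAAtccctaccagtcttttatc

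Across the gene end the pooled levels of 5mC and 5hmC differed little in windows of 5 kb. From the last 5 kb of the gene to the first 5 kb beyond it, the TAPSβ level went from 61.3% to 61.8%, a difference of 0.443 percentage points (95% interval 0.386 to 0.500). The CAPS level went from 3.77% to 3.72%, a difference of -0.0483 points (-0.0740 to -0.0226). In windows of 1 kb CAPS was higher after the end instead, by 0.0861 points (0.0300 to 0.142). The TAPSβ difference was larger in those windows, at 2.33 points (2.20 to 2.45). PS, at 0.209% and 0.233%, stayed near its level over all autosomes on both sides. These PS levels lay below the false-positive rate of PS that the study gives for its unmodified control. The pooled PS levels and their differences can therefore not be told from background and are not read here as 5fC/5caC. Among pooled windows of 5 kb, larger differences were measured at the comparison points away from the end. At 5 kb inside the gene the TAPSβ level was 1.89 points lower on the side nearer the end (63.2% and 61.3%) and the CAPS level 0.207 points higher (3.56% and 3.77%). At 5 kb beyond the end both were lower on the far side, TAPSβ at 61.8% and 60.3% and CAPS at 3.72% and 3.52%.

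The sign of the small change in 5-kb windows was not shared by all autosomes. The TAPSβ difference ranged from -3.29 points on chromosome 14 to 3.77 points on chromosome 7, with the interval above 0 on 11 autosomes and below 0 on 7. The CAPS difference ranged from -0.230 points on chromosome 17 to 0.246 points on chromosome 14 and was below 0 on 14 of 19, with the interval below 0 on 6 and above 0 on 3. The spread between chromosomes was therefore far wider than the counting intervals of the pooled differences. At the other 16843 gene ends, which have transcript starts or other genes close by, the TAPSβ level was much lower on both sides (43.4% before and 43.8% after) and the CAPS level was 3.54% on both.

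In 250-bp bins the 5mC level changed most shortly before the end. TAPSβ was lowest, at 58.9%, between 1250 and 1000 bp before the end, rose by 2.91 points on entering the last 250 bp (from 60.4% to 63.3%) and was highest in the first 250 bp beyond, at 63.7%. That entry into the last 250 bp was the largest of 39 steps between neighbouring bins. The step at the gene end itself was 0.456 points, and 21 of the 39 steps were larger. For CAPS the step at the end was 0.103 points, exceeded by 12 of 39, and the lowest bin, at 3.42%, was the last 250 bp of the gene.

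**Figure D1:**
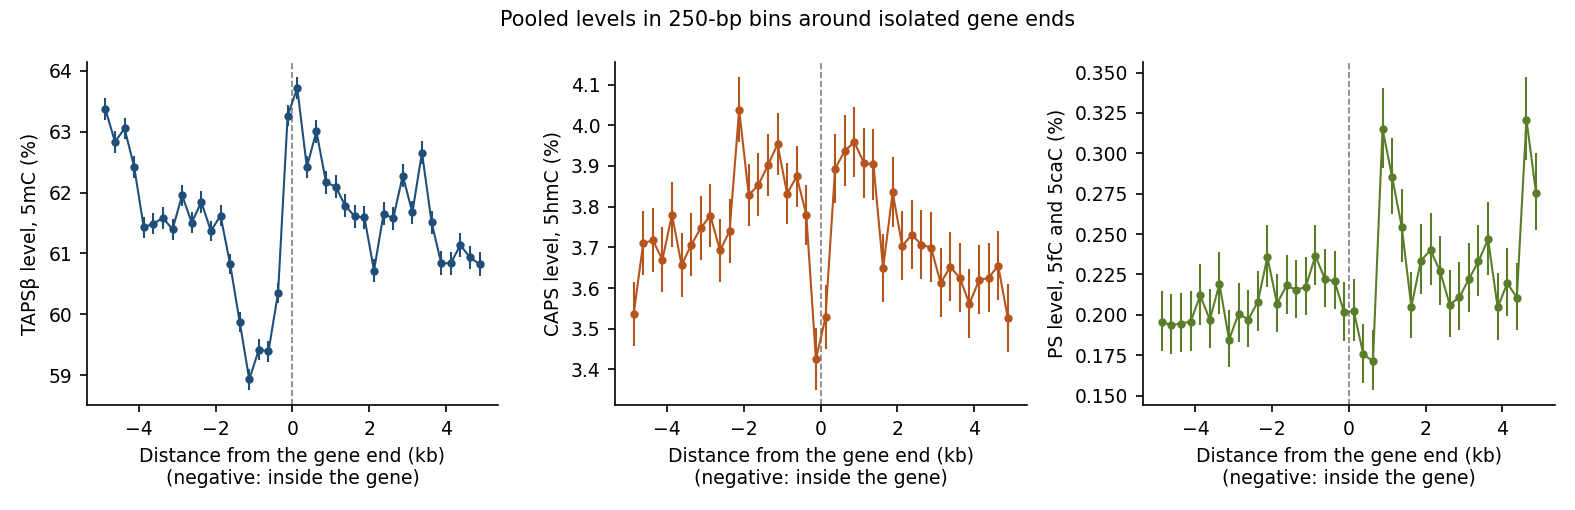
Pooled levels of TAPSβ, CAPS and PS (y axes, percent of base calls) in 250-bp bins from 5 kb before to 5 kb after the 4575 isolated gene ends (x axis, kb; dashed line, gene end), with 95% counting intervals. TAPSβ was lowest at 58.9% between 1250 and 1000 bp before the end and highest at 63.7% just beyond the end, and CAPS dropped to 3.42% in the last 250 bp.

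The last exon, which mostly holds the 3′ untranslated region, had a lower pooled 5mC and a higher pooled 5hmC level than its surroundings. Its pooled TAPSβ level was 58.9%, against 63.8% in introns of the last 5 kb, 62.3% in the first 2 kb beyond the end and 61.4% from 2 to 5 kb beyond. The CAPS level was 3.93% in the last exon, 3.60% in those introns, 3.82% in the first 2 kb beyond and 3.64% from 2 to 5 kb beyond. Other exons within the last 5 kb resembled the last exon, at 59.0% for TAPSβ and 3.95% for CAPS. At the 2793 ends with a last exon of at least 1 kb, the TAPSβ level was 62.9% from 500 to 250 bp upstream of the exon, 54.5% in the first 250 bp of the exon, 51.9% in the next 250 bp, and 64.5% in its last 250 bp. The low pooled 5mC level thus lay in the 5′ part of these exons, which was also richer in CpGs, with 34885 cytosines in the first 250 bp against 12675 in the last 250 bp. With cytosines grouped by the number of other CpGs within 100 bp, exons of the last 5 kb had a higher TAPSβ level than introns at 0 (68.0% and 67.2%), at 1 (67.6% and 66.5%), at 2 to 3 (65.6% and 64.9%) and at 4 to 7 (59.2% and 58.8%). Only at 8 or more was the exonic level lower (30.3% and 40.4%), and there it was close to the level beyond the end (30.5%). CAPS was higher in exons than in introns in all 5 groups, by 0.0698 to 0.282 points, but in the groups from 0 to 3 other CpGs it was lower in exons than beyond the end (2.89% and 3.03% at 0, 3.35% and 3.36% at 1, 3.83% and 3.94% at 2 to 3).

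The density of CpGs differed between the sides of the end, and the 5mC level went with it. Cytosines with 8 or more other CpGs within 100 bp took 8.58% of the TAPSβ base calls in the last 5 kb of the gene but 3.24% in the first 5 kb beyond, and they were the least methylated, at 31.7% and 30.5%. Cytosines with no other CpG within 100 bp took 12.8% and 17.4% of the base calls and were at 67.5% and 66.3%. Within each of the 5 density groups the TAPSβ level was lower after the end than before. The difference was -1.21 points with 0 other CpGs, -1.45 with 1, -2.18 with 2 to 3, -2.84 with 4 to 7 and -1.23 with 8 or more. The pooled level was nonetheless higher after the end, where the sparsely spaced and more methylated CpGs made up more of the base calls. Exon content changed at the same place. Of the cytosines with 8 or more other CpGs nearby, 82.1% were exonic before the end and 0% after. The parts of density and exon content in the pooled change were not separated. With both sides set to the same shares of the density groups, TAPSβ was 62.4% before and 60.4% after, a difference of -1.98 points (-2.04 to -1.92), so the direction of the pooled change turned.

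At equal CpG density the same comparison gave -0.502 points at 5 kb inside the gene and -1.29 points at 5 kb beyond the end, both smaller than at the end. In 500-bp bins at equal density the decline was gradual. The TAPSβ level was 62.0% to 63.6% in each bin of the last 5 kb, 62.4% in the first 500 bp beyond the end, 61.6% and 60.9% in the next bins and 60.2% from 2000 to 2500 bp, and it stayed between 58.3% and 61.0% from there to 10 kb. Without exons, and with no weighting for density, the pooled difference was -1.99 points. In 2-kb windows introns were at 62.8% and the sequence beyond the end at 62.3%. The groups of gene length differed here, with introns of the last 2 kb and the first 2 kb beyond at 61.3% and 59.2% for short genes, 64.3% and 62.7% for middle genes and 63.0% and 65.0% for long genes.

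**Figure D2:**
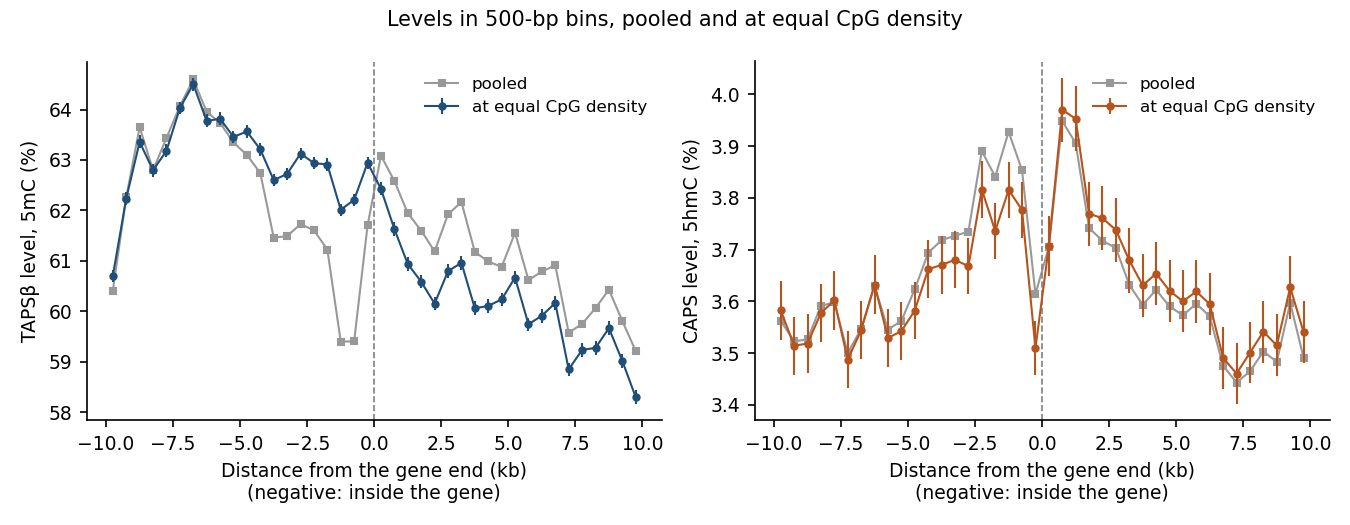
TAPSβ and CAPS levels (y axes, percent) in 500-bp bins from 10 kb before to 10 kb after the gene end (x axes, kb), pooled (grey squares) and weighted to the same shares of 5 CpG density groups in every bin (coloured circles with 95% counting intervals). At equal density TAPSβ declined from 62.9% in the last 500 bp of the gene to 60.2% at 2000 to 2500 bp beyond it, and CAPS was highest from 500 to 1500 bp beyond with a low bin at the end.

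5hmC was raised on both sides of the end. The CAPS level was 3.54% to 3.59% in each 1-kb bin from 10 to 5 kb before the end, 3.89% from 2 to 1 kb before, 3.82% in each of the first 2 kb beyond, and 3.45% from 7 to 8 kb beyond. Over all isolated ends at equal CpG density, the highest values were 3.97% and 3.95%, at 500 to 1000 and 1000 to 1500 bp beyond the end. The bins from 2500 to 500 bp before it were at 3.74% to 3.82%. CAPS thus differed little between the sides at equal density, by 0.0505 points (0.0245 to 0.0765), a change of sign from the pooled difference. The density groups moved in opposite directions here. CAPS was higher after the end with 0 other CpGs (2.83% and 3.03%), with 1 (3.25% and 3.36%) and with 2 to 3 (3.79% and 3.94%), and lower with 4 to 7 (4.38% and 4.29%) and with 8 or more (4.11% and 3.62%).

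The share of cytosines called as carrying 5hmC was also raised on both sides of the end. Unlike the pooled CAPS level in 5-kb windows, it was higher after the end than before. A call was a cytosine with at least 5 CAPS reads and more modified reads than the false-positive rate of CAPS allows (one-sided exact binomial test, Benjamini-Hochberg adjusted p under 0.05). Over the genome 1.64% of tested cytosines were called. In the last 5 kb of the gene the share was 2.08% (9362 of 449061) and in the first 5 kb beyond it 2.20% (7932 of 361332), with 1.93% and 2.02% in the 5-kb windows farther in and farther out. In the first 1 kb beyond the end it reached 2.34%. A call also depends on the number of reads at a cytosine, which was not matched between windows.

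PS was also uneven between ends. Among cytosines with 8 or more other CpGs nearby its level was 0.225% before the end and 0.738% after, but 5 of the 858 ends that held such cytosines gave most of these reads, and without them the level beyond the end was 0.261%.

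The clearest feature at the end itself was a narrow dip of 5hmC that straddled it. In 50-bp bins CAPS was 3.70% from 150 to 100 bp before the end, 3.18% from 100 to 50 bp before, 2.68% (2.51 to 2.87) in the last 50 bp, 2.94% (2.78 to 3.10) in the first 50 bp beyond, 3.53% in the next and 3.79% in the one after that. TAPSβ was higher over a similar stretch, but its bins did not mirror those of CAPS. TAPSβ was 60.9% from 250 to 200 bp before the end, 65.1% from 150 to 100 bp before and 64.1% from 100 to 50 bp before. It was 63.0% in the last 50 bp, 65.2% in each of the first 2 bins beyond and 62.7% in the following one. From 150 bp before the end to the end TAPSβ thus fell together with CAPS, and both were higher in the first 50 bp beyond. The last 50 bp were also poorest in CpGs, with 3061 cytosines read in CAPS against 4834 from 150 to 100 bp before and 4352 in the first 50 bp beyond. The number of reads per cytosine did not drop there: in the last 250 bp it was 12.8 in TAPSβ and 9.89 in CAPS, against 12.5 and 9.55 in the 250 bp before.

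Set against the stretches 500 to 1500 bp away on both sides, the 500 bp centred on the end had a CAPS level of 3.48% against 3.91% (difference -0.431 points, -0.492 to -0.370) and a TAPSβ level of 63.5% against 60.7% (2.83 points). The TAPSβ difference was 3.86 points on the side before the end and 1.46 points on the side beyond it, and 1.69 points without CpG clusters. PS was 0.202% against 0.237%, a difference that shrank to -0.00868 points (-0.0234 to 0.00603) without cytosines of high coverage. This contrast was drawn after the profile had been seen and is a description. The CAPS level was lower close to the end on 18 of 19 autosomes, with the interval below 0 on 16, and in each group of gene length, with differences of -0.325, -0.502 and -0.453 points in short, middle and long genes. It was lower in 4 of the 5 density groups, with differences of -0.380 points at 0 other CpGs within 100 bp, -0.454 at 1, -0.566 at 2 to 3 and -0.289 at 4 to 7. With 8 or more it was 3.89% close to the end and 3.90% farther away. TAPSβ was higher close to the end on 16 of 19 autosomes, with the interval above 0 on 15, and lower with the interval below 0 on 3, chromosomes 7, 14 and 18. The TAPSβ excess grew with density, from 0.699 points with 0 other CpGs to 7.81 points with 8 or more.

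The dip was present at ends with and without a canonical signal, and a similar one was found around the same hexamer elsewhere. In the last 50 bp CAPS was 2.50% (2.27 to 2.75) at the 2623 ends with AATAAA, 2.52% (2.07 to 3.05) at the 658 with ATTAAA only and 3.01% (2.70 to 3.35) at the 1294 with neither. In the contrast of the 500 bp around the end with its flanks, the CAPS difference was -0.493, -0.350 and -0.333 points in the same order of groups and the TAPSβ difference 3.27, 4.20 and 1.26 points. Cytosines within 100 bp of AATAAA in the last 50 bases of a gene had a CAPS level of 2.98%, against 3.96% at 500 to 1500 bp from it. At the 19767 occurrences of AATAAA on the coding strand inside these genes, outside exons and 2 to 8.5 kb before the end, the values were 2.78% and 3.50%. At the 27112 occurrences 2 to 8.5 kb beyond the end they were 2.95% and 3.50%. The difference was thus -0.982 points at the ends, -0.722 inside the genes and -0.549 beyond, and TAPSβ was higher near the hexamer by 4.78, 3.70 and 3.88 points. A lower 5hmC and a higher 5mC level around AATAAA was therefore not particular to the ends. The CAPS difference was largest at the ends (-1.10 to -0.866, against -0.769 to -0.675 inside the genes). The level near the hexamer was not lower there (2.98%, against 2.78% and 2.95%), but the level farther away was higher (3.96% against 3.50%). CpG density was not matched. Inside and beyond the genes, windows of neighbouring hexamers can overlap and count base calls more than once, which makes the intervals too narrow. The part of base composition around the hexamer was not tested.

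**Figure D3:**
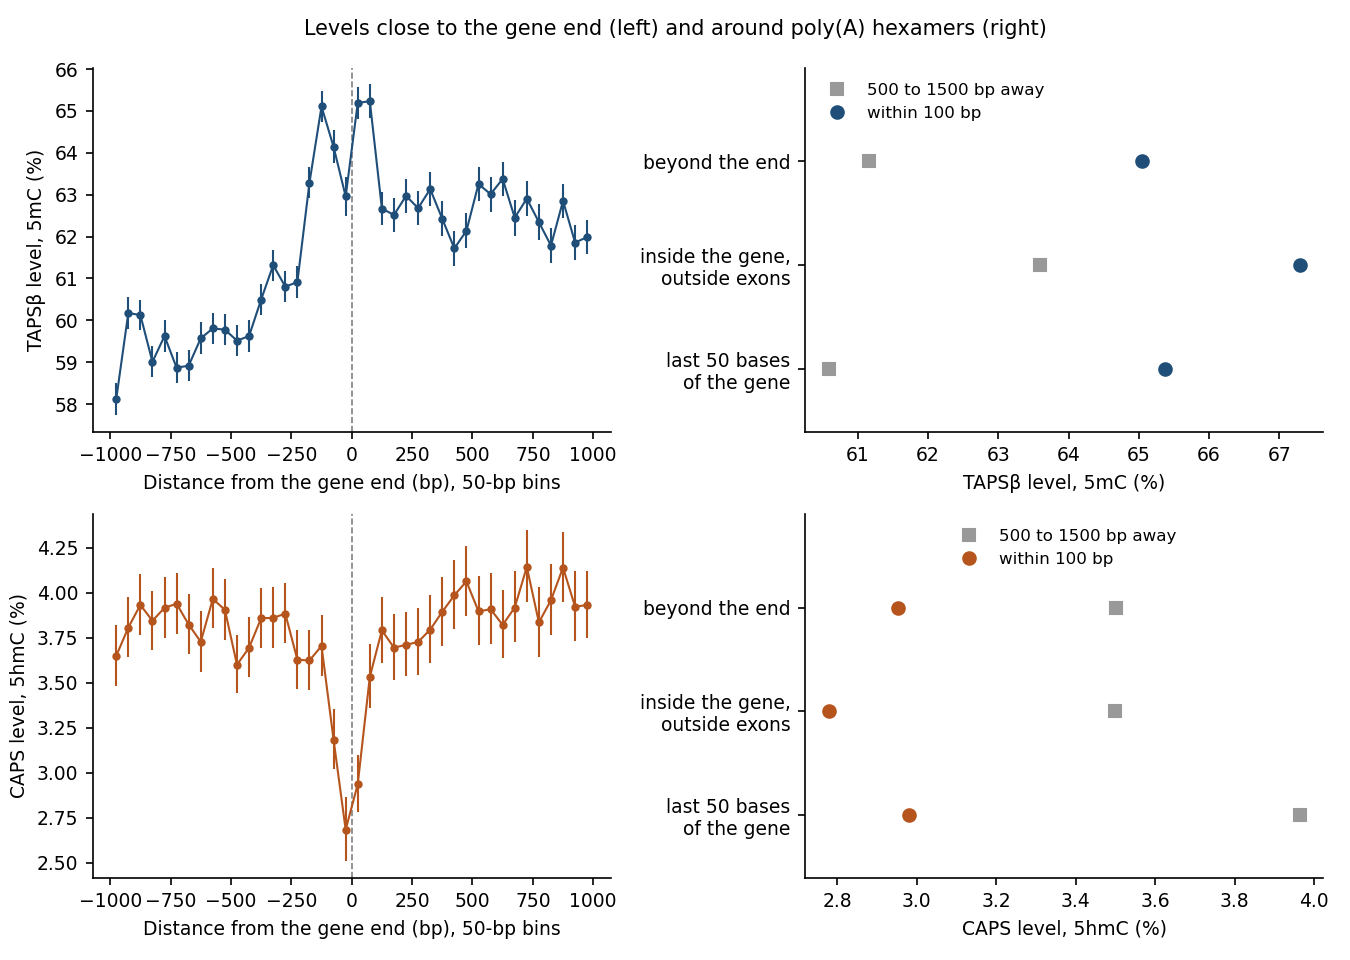
Left, TAPSβ (top) and CAPS (bottom) levels in percent in 50-bp bins within 1 kb of the gene end, with 95% counting intervals; right, the levels within 100 bp of AATAAA (circles) and 500 to 1500 bp from it (squares) at the gene end, inside the gene and beyond it. CAPS fell to 2.68% in the last 50 bp, and it was lower near the hexamer at all 3 places.

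The 5mC level at the end differed with gene length. In the last 5 kb the TAPSβ level was 58.9% for short genes, 61.8% for middle genes and 63.4% for long genes, and in the first 5 kb beyond it was 59.1%, 61.6% and 64.8%. The change was 0.172 points for short, -0.164 for middle and 1.42 for long genes. In 2-kb windows it was 1.69, 1.70 and 2.33 points in the same order, and in 1-kb windows 2.38, 2.41 and 2.14 points, so the order of the groups depended on the window. At equal CpG density the level was lower after the end in each group, with differences of -2.35, -2.53 and -0.833 points in the same order. Within single density groups the only higher level after the end was that of long genes at 8 or more other CpGs, where TAPSβ went from 34.5% to 35.9%.

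The CAPS level was lowest for long genes, at 3.60% before the end and 3.47% after. It was 3.86% and 3.79% for short and 3.84% and 3.88% for middle genes. In the first 1 kb beyond the end short and middle genes were at 3.95% and 4.07% and long genes at 3.46%. The differences across the end, -0.0680, 0.0430 and -0.132 points, remained small, and the interval for middle genes included 0. In 2-kb windows they were 0.0176, 0.138 and -0.122 points, and in 1-kb windows 0.0598, 0.249 and -0.0535 points in the same order, with the interval above 0 for middle genes in both. At equal CpG density they were 0.00860 points (-0.0369 to 0.0541) for short, 0.151 (0.106 to 0.196) for middle and -0.0234 (-0.0675 to 0.0208) for long genes, so the interval then included 0 for short and long genes and not for middle genes. Long genes also had more room beyond them, as the next gene lay a median of 27963 bp away for short genes and 34194 bp for middle genes, against 51437 bp for long genes. The levels also differed with that distance. In 3 groups of 1523 ends ordered from the nearest to the farthest next gene, TAPSβ before the end was 59.6%, 61.3% and 63.4%, and after it 59.9%, 61.6% and 64.2%. CAPS was 3.95%, 3.82% and 3.50% before the end and 3.87%, 3.78% and 3.48% after. Gene length and distance were not separated.

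**Figure D4:**
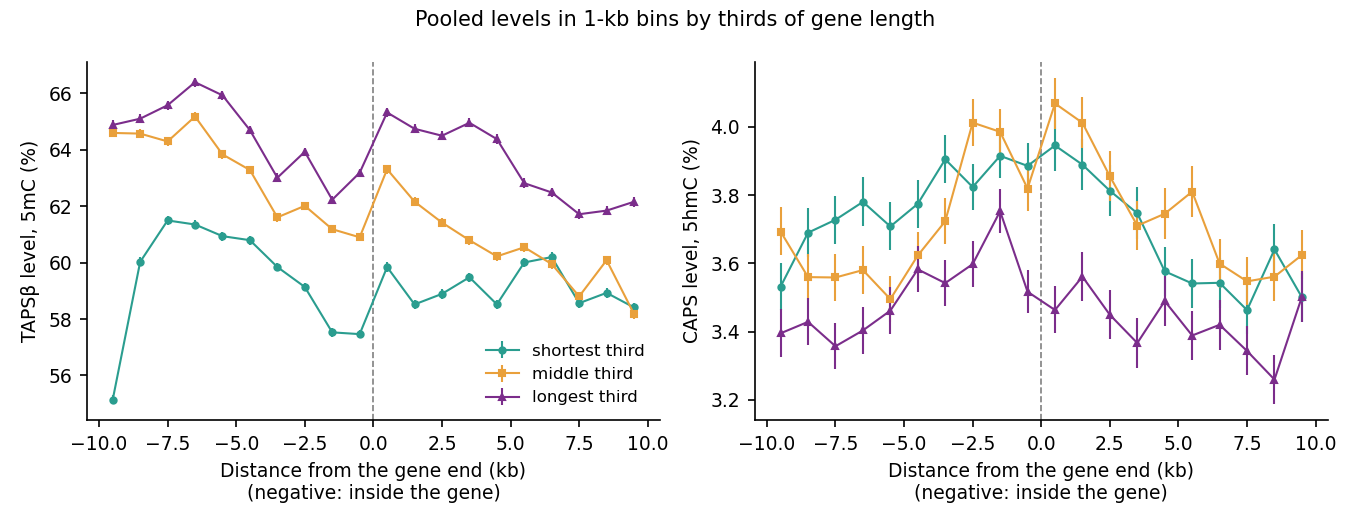
TAPSβ and CAPS levels (y axes, percent) in 1-kb bins from 10 kb before to 10 kb after the gene end (x axes, kb) for the 3 groups of gene length, with 95% counting intervals. Long genes had the highest TAPSβ and the lowest CAPS levels beyond the end, with CAPS at 3.46% in the first 1 kb against 3.95% and 4.07% in the others.

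The methylation of the promoter went with the 5hmC level at the other end of the gene. At the 3073 ends of genes with a TAPSβ level under 20% within 500 bp of the gene start, CAPS was 3.97% before the end and 3.93% after. At the 1024 ends of genes with a promoter level of 50% or more it was 3.03% on both sides. TAPSβ was 60.7% and 61.5% in the first group and 64.0% and 63.2% in the second. The order of CAPS levels by gene length was seen with unmethylated promoters, where the level before the end was 4.18% for short, 4.06% for middle and 3.70% for long genes. With methylated promoters the same levels lay within 3.01% to 3.06%. The order of TAPSβ levels before the end, 57.2%, 61.0% and 63.4% from short to long genes with unmethylated promoters, was also lost with methylated ones, at 63.9%, 65.1% and 62.5%. These groups rest on the annotated gene start, and neither the CpG content of the promoters nor expression was measured here. They are therefore not a split into active and silent genes.

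Single ends moved in both directions. Among the 4508 ends with at least 50 TAPSβ base calls on each side, the intervals before and after did not overlap, with the lower level after the end, at 1300 (28.8%). The level was higher after the end, with intervals apart, at 1142 (25.3%). Over all autosomal protein-coding ends these shares were 32.6% and 31.5%. For CAPS 296 of 4501 ends (6.58%) were lower after and 267 (5.93%) higher, against 9.85% and 9.35% over all ends. Whether intervals part depends on the number of base calls and on the level of each side. Neither was matched between isolated and other ends, so the lower shares are not read as a result about isolated ends. The change per end had a mean of -0.373 points with a standard deviation of 13.3 for TAPSβ, and a mean of -0.0492 points with a standard deviation of 1.74 for CAPS. The ends had medians of 1294 and 1077 TAPSβ base calls and of 1004 and 816 CAPS base calls before and after.

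The changes of the marks tended to be opposite from end to end. Of the ends with intervals apart in both libraries, 189 were higher in TAPSβ and lower in CAPS and 175 were lower in TAPSβ and higher in CAPS, while 41 were lower in both and 37 higher in both. Across 4500 ends the changes had a Pearson correlation of -0.328 (Spearman -0.374). The levels before and after the end were correlated at 0.379 for TAPSβ and 0.492 for CAPS. These correlations are over ends of the same libraries, which are not replicates. The counts are of isolated ends only, with no such count over all ends to set beside them. Neither counts nor correlations were taken at equal CpG density. In the last 5 kb TAPSβ was lower and CAPS higher at 4 to 7 other CpGs within 100 bp (59.1% and 4.38%) than at 0 (67.5% and 2.83%).

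**Figure D5:**
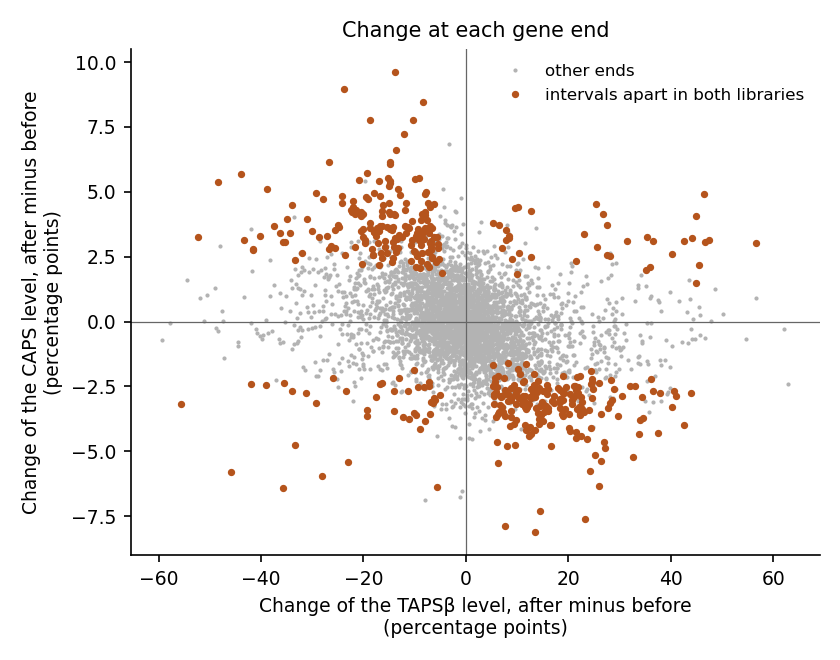
Change of the TAPSβ level (x axis) against the change of the CAPS level (y axis), after minus before the end in percentage points, for 4500 gene ends; coloured points have non-overlapping intervals in both libraries. Most coloured points lie in the quadrants of opposite change (189 and 175), against 41 and 37 in the quadrants of like change.

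The largest falls of 5hmC after the end were of 5 to 7 points. Among the ends with at least 200 base calls in each library on each side and a PS level under 1%, Kcnk18, a potassium channel gene (end on chromosome 19, position 59311860), went from 9.58% (115 of 1201 base calls) to 3.20% (41 of 1282). Acpl2 went from 8.52% to 2.20% while its TAPSβ level rose from 39.8% to 65.9%. Bmf, which encodes a BH3-only protein of the apoptosis pathway, went from 7.57% to 1.80% with TAPSβ at 42.8% and 67.0%. In Pdk4, the gene of a kinase that inhibits pyruvate dehydrogenase, CAPS went from 7.63% to 2.18% and TAPSβ from 55.2% to 61.4%. Kcnk18 was also lower in TAPSβ after the end, at 55.38% and 49.65%. Arl4c, the gene of a small GTPase, and Cnot10, which encodes a subunit of the CCR4-NOT deadenylase (end on chromosome 9, position 114494996), were likewise lower in both marks. In Arl4c CAPS went from 7.69% to 1.75% and TAPSβ from 55.9% to 27.8%, and in Cnot10 CAPS went from 8.48% to 2.70% and TAPSβ from 54.3% to 8.56%. These 6 ends parted in 5mC, with the TAPSβ level higher after the end at 3 and lower at 3.

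The largest rises of 5hmC all came with less 5mC beyond the end. In 4932412H11Rik (end on chromosome 5, position 3866596) CAPS went from 2.94% (31 of 1055 base calls) to 10.7% (67 of 625) and TAPSβ from 71.8% to 53.0%. Ints7, which encodes a subunit of the Integrator complex, went from 3.65% to 10.3% in CAPS and from 69.0% to 55.3% in TAPSβ. Zyg11b, the gene of a substrate receptor of a ubiquitin ligase, went from 1.35% (9 of 669 base calls) to 7.50% with TAPSβ at 77.1% and 50.3%. The interval of its CAPS level before the end, 0.617 to 2.54, included the false-positive rate of CAPS (0.0072 as a fraction of base calls). Spred2, the gene of an inhibitor of Ras signalling (end on chromosome 11, position 19924029), went from 2.25% to 8.39% with TAPSβ at 70.5% and 55.7%. The TAPSβ level of the promoter was 12.3% in 4932412H11Rik and at most 1.22% in the other 3.

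Most of the ends with the largest changes of 5mC had overlapping CAPS intervals. TAPSβ went from 71.2% to 11.9% at the end of Tank (chromosome 2, position 61492228), from 75.2% to 17.4% at Fam81a (chromosome 9, 69937117), from 79.8% to 24.0% at Vmn2r87 (chromosome 10, 129908388), a vomeronasal receptor gene, and from 65.2% to 10.7% at Cndp1 (chromosome 18, 84779901), the gene of a dipeptidase. Of these only Vmn2r87 had CAPS intervals apart, with 27 modified of 494 base calls before the end and 23 of 1000 after. TAPSβ rose from 22.7% to 85.7% at Cyp2b23 (chromosome 7, 27450246), a cytochrome P450 gene, from 13.1% to 75.3% at Zfp697, from 5.55% to 62.2% at Abhd6 (chromosome 14, 8889069), the gene of a lipid hydrolase, and from 12.8% to 69.4% at Zfp746 (chromosome 6, 48012394). At 3 of these 4 the CAPS intervals overlapped, and at Abhd6 CAPS was 3.72% before the end and 6.73% after. The side with less 5mC held at least 419 TAPSβ base calls at each of these 8 ends.

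Genes of the pluripotent state and its chromatin had a higher median 5hmC level than all isolated ends, with single genes below it. Of 67 genes on the list, 15 had isolated ends, with median CAPS levels of 5.11% before the end and 6.41% after, against 3.26% and 3.18% over all isolated ends. Their median CAPS change was 0.807 points and their median TAPSβ change -3.33 points. The TAPSβ intervals were apart with a lower level after the end at 6 and a higher level at 6, and the CAPS intervals with a lower level at 1 and a higher level at 3. Over all isolated ends these shares were 28.8% and 25.3% for TAPSβ and 6.58% and 5.93% for CAPS, and over all autosomal protein-coding ends 32.6% and 31.5% for TAPSβ and 9.85% and 9.35% for CAPS. The end with the lower level was Sall1, a zinc-finger transcription factor gene, where CAPS went from 7.40% to 2.63% and TAPSβ from 43.5% to 10.1%. The other examples by number of base calls overlapped in CAPS. Il6st, which encodes the gp130 subunit of the LIF receptor, was at 5.67% and 6.95%, Smarca4, the ATPase of the BAF remodelling complex, at 3.26% and 5.42%, Klf5 at 7.74% and 6.43%, Chd7, a chromatin remodeller gene, at 6.30% and 6.57%, and Esrrb, a nuclear receptor gene of the naive state, at 9.93% and 8.02%.

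The 3 pluripotency genes with a higher CAPS level after the end were named after their values had been seen. They were Zfp42 (Rex1), at 1.99% and 6.41%, Eed, a subunit gene of the Polycomb complex PRC2, at 5.11% and 8.42%, and Kdm4c, a histone demethylase gene, at 1.99% and 6.54%. In Zfp42 TAPSβ was low on both sides, at 5.76% and 16.0%.

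A list of cleavage and polyadenylation genes, which also held Integrator genes and Leo1, gave 10 isolated ends from its 51 genes. Their median CAPS level was 3.61% before and 4.16% after, and the CAPS intervals were apart at 2 of them, lower after the end in Cstf1, a cleavage stimulation factor gene, at 6.84% and 3.63%, and higher in Ints7. With 9.85% of all ends lower and 9.35% higher, this count is near the background and is not a result about these genes. Ints1 (3.26% and 2.45%), Cpsf2 (3.50% and 3.08%) and Leo1 (5.14% and 4.16%) had overlapping intervals.

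The counts of the remaining lists stand beside the same shares of isolated ends, 6.58% lower and 5.93% higher in CAPS, and of all ends, 9.85% and 9.35%. The 23 isolated ends of general upkeep genes, out of 97 on the list, had a median CAPS change of 0.745 points, with 3 ends higher and 0 lower by intervals apart. The 30 ends of blood and immune cell genes, out of 58, had a median change of -0.914 points, with 1 higher and 6 lower, and a median TAPSβ change of 2.39 points. Synapse and neuronal adhesion genes (73 of 99) had low CAPS medians of 2.36% and 2.21% and a median change of -0.0651 points, with 3 ends higher and 1 lower. Striated muscle genes (18 of 42) had medians of 2.79% and 2.26%, with 2 ends higher and 2 lower. The differences between lists were not tested. The median change over all isolated ends was -0.0783 points. The lists are small and were chosen with earlier results of these data known, so these counts are a description.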

How the data were processed

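Genomic DNA of E14 mESCs was read by TAPSβ, CAPS and PS, with 1 library per method. The CAPS DNA was selected for shorter fragments than that of the other libraries, per the labels. The submitters' processing notes name Trim Galore 0.3.1, BWA 0.7.12, Picard 2.3.0 and the mm9 build. Per the study's methods, reads were trimmed, aligned, freed of PCR duplicates and called with asTair. The authors deposited, for each CpG cytosine, the read counts that showed a modified and an unmodified base, and the modified fraction of those reads. Sites of C-to-T variants can read as modified in all 3 libraries.

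Here the counts were summed over windows and the level was taken as modified over all base calls, with exact 95% intervals, which cover counting error only. All listed positions were CpG cytosines of the reference. With 1 library per method no p-value between regions was computed. The depth (medians of 13, 9 and 9 reads per cytosine) limits values of single ends more than pooled ones. 5hmC calls used the false-positive rate of CAPS given by the study. Genes were named where both windows held at least 200 base calls in each library and a PS level under 1%, as the 6 largest falls and 4 largest rises in CAPS and the 4 largest of each in TAPSβ, besides up to 6 examples from each of 2 lists by number of CAPS base calls. One of these examples is not reported here. The gene ends and the lists were chosen with earlier results of these data known. Alternatives covered a minimum of 10 reads, removal of high-coverage or variant-like cytosines, each strand, windows of 2 kb, isolation by 20 kb, ends without another end nearby, removal of exons or CpG clusters and a mean over ends. The comparison at equal CpG density (5 groups by other CpGs within 100 bp) and that around hexamers were added after seeing the data. Scripts were tested on simulated data. Tables were read with pandas 2.3.3, intervals came from scipy 1.17.1, sums from numpy 2.4.6 under Python 3.11.15, and plots from matplotlib 3.10.9.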

Additional observations from a re-analysis of the deposited data

How the results depend on the processing

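Each value had 1 library behind it, so replicate error is unknown, and a difference between gene ends and their surroundings is measured in these libraries only. No paired analysis was possible because each method had 1 library and no test between samples was made. The direction of the small pooled changes at the end depended on which cytosines were used. The TAPSβ difference, 0.443 points, turned to -1.993 without exons, -0.9843 without CpG clusters, -0.3735 as a mean over ends (with an interval that included 0) and -1.979 at equal CpG density, and was 0.5927 with at least 10 reads, 1.912 in 2-kb windows, 1.275 at ends isolated by 20 kb and 0.7752 at ends with no other end within 5 kb. The CAPS difference, -0.0483 points, turned to 0.0132 in 2-kb windows (with an interval that included 0), 0.1149 without exons and 0.05048 at equal density, and was -0.001343 with at least 10 reads and -0.09753 with no other end. The PS difference, 0.0236 points, kept its sign under the alternatives. It was 0.03113 with at least 10 reads, 0.01208 without high coverage, 0.01236 in 2-kb windows, 0.04352 at 20 kb and 0.03531 with no other end. Without CpG clusters it was 0.01516, as a mean over ends 0.001079 (with an interval that included 0) and at equal density 0.04149. In 1-kb windows it was -0.00514 (-0.0186 to 0.00834), and for long genes -0.00823 (-0.0184 to 0.00198). The TAPSβ difference between long and short genes (1.245 points) was 0.6391 in 2-kb windows, 1.481 at 20 kb, 2.063 without exons, 0.6122 with no other end, 1.45 without CpG clusters and 1.515 at equal density, and that of CAPS (-0.06403) was -0.1396 in 2-kb windows and -0.1482 at 20 kb. The count of ends with lower TAPSβ after the end (1300) was 612 at 20 kb and 747 with no other end, where fewer ends were tested. That for CAPS (296) was 178 with at least 10 reads, 183 in 2-kb windows, 133 at 20 kb, 171 with no other end, 156 on the coding strand and 134 on the template strand, where fewer ends or base calls entered. The balance of lower against higher CAPS levels, 296 against 267, turned to 183 against 200 in 2-kb windows, 202 against 213 without exons and 134 against 136 on the template strand. Apart from the construction of these counts, the cause was not tested. The CAPS change moved by less than its counting interval under 9 of 14 alternatives, and its difference between long and short genes under 12 of 14. The contrast of the 500 bp around the end with its flanks, chosen after seeing the data as were its 13 alternatives, ranged over them from 0.699 to 7.808 points in TAPSβ and from -0.566 to -0.004855 points in CAPS. Both far values, 7.808 and -0.004855, were those of cytosines with 8 or more other CpGs nearby, and the interval of the latter included 0. The filter on variant-like cytosines was not run for PS, whose level defines it.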
